A study of Drosophila melanogaster with 6 samples.

Results

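Cuticle protein genes encode the structural proteins that bind chitin and give the insect exoskeleton its stiffness and elasticity. The genes examined were those whose current symbol marks them as members of the Cpr, Twdl, Lcp, Ccp84A, Edg or Pcp groups and that have a probe set assigned to no other gene, with the brightest probe set standing for each gene. There were 104 such genes among 11804 genes with a probe set of their own, and 16 of the 104 had a mean log2 level of at least 4 over the 6 arrays. A further 21 RefSeq genes with matching symbols, among them *Lcp1* to *Lcp4* and *Acp1*, had no probe set of their own and were not analysed here.

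The 6 samples were pools of 75 to 100 heads from flies of the Canton S laboratory strain, labelled female, with no mutation or treatment named in the labels. There were 3 pools of flies aged 40 days and 3 of flies aged 10 days, each age numbered 1 to 3 and described as independent biological replicates. RNA was hybridised to Affymetrix 3' arrays, and the deposited values are log2 levels made with GCRMA, so a difference of 1 is a 2-fold change. RNA of such pools comes from many cell types, so fewer cuticle-forming cells and less RNA per cell cannot be told apart.

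Arthropod cuticle is laid down by epidermal cells in bursts around each moult, under the steroid hormone ecdysone. Most structural proteins of the cuticle carry the Rebers-Riddiford domain, which binds chitin, and their genes are named Cpr for cuticular protein with that domain, followed by their cytological position. Larval, pupal and adult cuticle draw on partly different sets of these genes, and neighbouring genes in a cluster are often copies of each other. Adult flies no longer moult, although some cuticle is still deposited after eclosion, and the corneal lenses of the compound eye are also cuticle.

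Markers of several tissues were set beside the female head label. The 5 photoreceptor markers with a probe set, with *Arr2* and *Arr1* the brightest, had mean levels from 9.75 to 14.97. The 10 markers of male accessory gland and testis had a median level of 14.72, which does not match heads of females, and the samples are called by their age below. Of the 10 ovary and yolk markers 8 lay under 4. A head holds no ovary, so in RNA of heads alone the ovary genes among them would not bear on the sex. A head holds no male reproductive tract or gut either, and markers of both had medians of 14.72 and 14.92. The ovary genes can therefore not be set aside on that ground. Among them *osk*, *vas* and *Vm32E* lay at 2.06 on all 6 arrays, and the sex of the flies was not tested. The yolk protein gene *Yp2*, also among the 8, had a mean of 3.61. The yolk protein genes *Yp1* and *Yp3*, which female fat body also expresses, had means of 7.29 and 8.86. *Yp1* had 7.97, 9.03 and 7.89 at 40 days, against 7.79, 6.71 and 4.37 at 10 days, without overlap. Its difference was 2.01 ± 0.63 (limma adjusted p = 0.154). The summed level of the male markers, as log2, ran from 17.92 to 18.03 at 40 days and from 17.67 to 18.07 at 10 days, so the ages overlapped. That sum is carried by the brightest genes. Within the list *dj*, a sperm tail gene, fell at 40 days, with a log2 difference of -1.18 (limma adjusted p = 0.0123, and 0.00347 without the block). *Mst84Db*, *Mst84Dd* and *betaTub85D*, also testis genes, had differences of 0.27, 0.25 and 0.20 without overlap and did not pass (limma adjusted p = 0.0771, 0.10 and 0.0906). The 6 gut protease markers, of a tissue that a head does not hold, had a median level of 14.92. The part of tissues outside the head in the levels below was not tested. Array medians ran from 7.51 to 7.53, and the lowest value in the table was 2.06. Both samples of number 2 stood apart in several genes below, so the comparison of the ages was also computed without them.

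Most cuticle protein genes lay at or near the lowest value of the arrays at both ages. A mean log2 level of at least 4 was reached by 16 of 104 of them, or 15.4%, against 74.9% of all 11804 genes. Of the other 88 genes, 64 stood within 0.01 of the table's lowest value on all 6 arrays, and 75 varied by less than 0.1 between arrays. The count of 16 was the same without both samples of number 2. It was 15 when a level of 4 was required on all 6 arrays and 20 when it was required on any array. A threshold of 3 gave 23 genes and a threshold of 6 gave 12. The arrays carry no detection calls here, so a low value is a level near background and does not show that a transcript is absent.

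The families differed in how many of their members were above that level. Of the 66 Cpr genes 13 reached a mean of 4, or 19.7%, and of the 24 Twdl genes 3, or 12.5%. The Twdl genes encode Tweedle proteins, a separate family of chitin-associated cuticle proteins of which *TwdlD* was named for a body shape mutant. None of the 14 genes of the remaining groups reached 4, and their highest value on any array was 2.08. These were the 7 Lcp genes, named for larval cuticle protein, the 3 Ccp84A genes, the pupal cuticle gene *Pcp*, and *Edg78E*, *Edg84A* and *Edg91*, which were first found as ecdysone-dependent genes of imaginal discs. No test was made between the families.

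**Figure D1:**
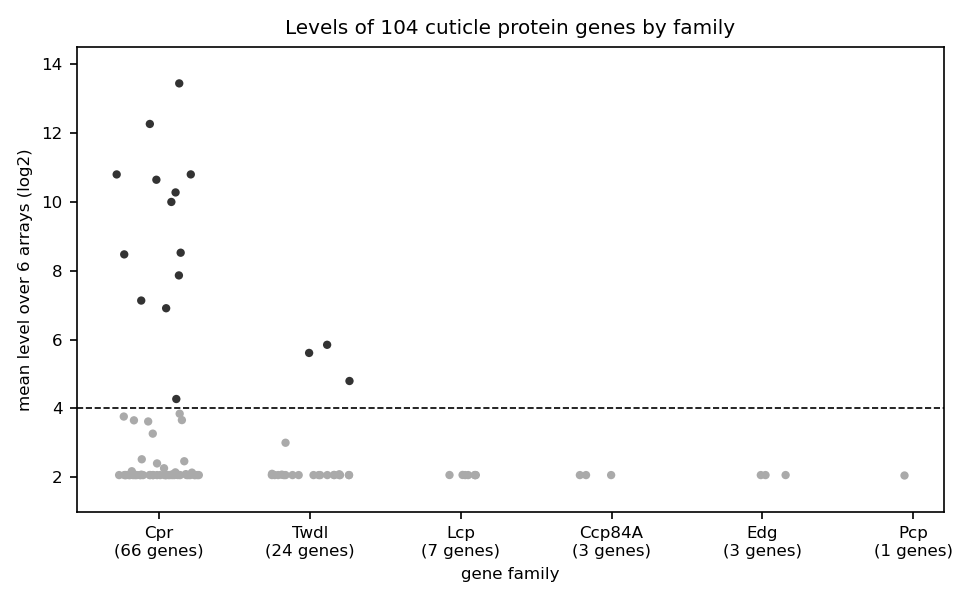
Mean log2 level over the 6 arrays (y axis) of each of the 104 cuticle protein genes, by family (x axis, points spread sideways at random). Dark points are the 13 Cpr and 3 Twdl genes at or above the dashed line at 4, and most grey points lie at the lowest value of the table, 2.06.

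A small set of genes lay between background and the threshold. The gene just above it was *Cpr60D*, with a mean of 4.27, and the gene just below it was *Cpr78E*, with a mean of 3.85. The 7 genes with a mean from 3 to 4 were *Cpr78E*, *Cpr100A*, *Cpr56F*, *Cpr97Eb*, *Cpr62Ba*, *Cpr66Cb* and *TwdlP*, with single values from 2.82 to 4.13. Of these, *Cpr78E*, *Cpr100A*, *Cpr97Eb* and *Cpr62Ba* passed 4 on at least 1 array. *Cpr56F* varied by less than 0.1 over the arrays, around 3.66, which is as flat as the genes at background. The remaining 81 lay under 3. Besides these, 7 probe sets were shared between a gene of these groups and another gene and were not counted. The 2 probe sets shared by *Cpr57A* and the odorant binding protein gene *Obp57d* had means of 7.45 and 2.09, which cannot be given to either gene. The probe set shared by *Lcp65Ag1* and *Lcp65Ag2* had a mean of 3.24, with 3.27, 2.79 and 3.02 at 40 days and 4.10, 2.59 and 3.64 at 10 days.

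The genes above the threshold lay scattered among neighbours that mostly lay near background. By the gene order of the RefSeq assembly Release 6 plus ISO1 MT, allowing up to 5 other genes between neighbours, 75 of the 104 genes fell into 15 runs of at least 3, and 11 of those 75, or 14.7%, had a mean of at least 4. Of the 29 genes in smaller runs or alone, 5, or 17.2%, did. The run from *Lcp65Ag3* to *Cpr65Az*, which holds larval and adult cuticle genes, had 18 genes by symbol, of which 10 had a probe set of their own. Of these, *Cpr65Au* had a mean of 13.44 while the other 9 did not pass 2.08 on any array. *Cpr67Fb* and *Cpr72Ec* likewise stood alone, with means of 12.26 and 10.27 beside 2 neighbours each that did not pass 2.06 on any array. The run from *Cpr49Aa* to *Cpr49Ah* had 2 of 8 genes above the threshold, *Cpr49Ab* and *Cpr49Ae*, and that from *Cpr47Ea* to *Cpr47Eg* had 2 of 7, the adjacent genes *Cpr47Ee* and *Cpr47Ef*. The longest run by probe sets, 12 Tweedle genes from *TwdlM* to *TwdlQ*, had none, and its highest single value was 3.19. Levels of different probe sets depend on the probes and were not tested against each other.

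**Figure D2:**
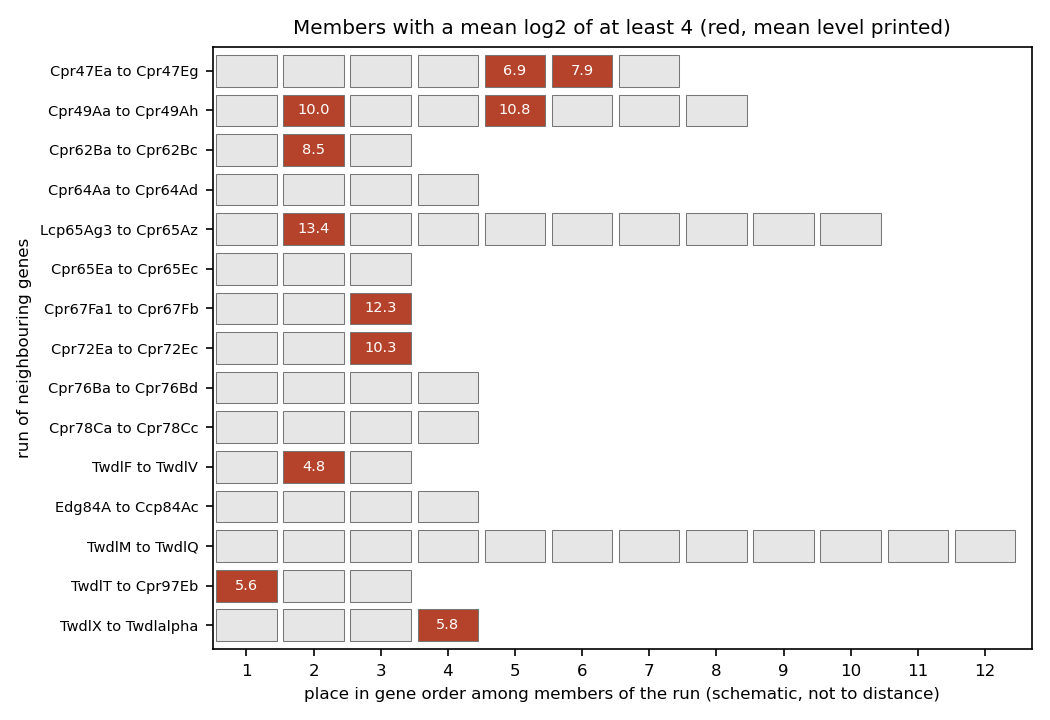
Each row is a run of at least 3 neighbouring cuticle protein genes with a probe set of their own (y axis), and each box a gene in RefSeq order (x axis, place in the run, not distance). Red boxes have a mean log2 level of at least 4, which is printed in them, and grey boxes lie below: 11 of the 75 genes are red, including 1 of 10 in the run that ends at *Cpr65Az*.

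No cuticle protein gene passed the test between 40 and 10 days, although the estimates of most were lower at 40 days. The limma fit with the replicate number as a block, adjusted by Benjamini-Hochberg over 10286 probe sets, called 0 of the 16 genes, against 1.92% of all probe sets (0.622% higher and 1.3% lower at 40 days), and without the block it called 0 of 16, against 0.34%. At an unadjusted p under 0.05, limma with the block gave 8 of 16, against 25.1% of all probe sets, with 6 lower and 2 higher at 40 days, against 12.1% lower and 12.9% higher, and limma without the block gave 3 of 16, against 13.1%. Adjusted p with the block ran from 0.0718 to 0.887. The fitted difference was below 0 for 11 of 16 genes, against 48.1% of all probe sets, with a median of -0.27 over the 16 genes and of 0.01 over all probe sets tested. No difference reached 2-fold: the log2 differences ran from -0.71 to 0.33. Without both samples of number 2 the median was -0.17, with 11 below 0 and 0 called.

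The pairs varied widely around these estimates. All 3 pairs were lower at 40 days for 8 of 16 genes, against 23.2% of all probe sets, and all 3 were higher for 2 of 16, against 26.1%. The median difference over the 16 genes was -0.19 in pair 1, -0.36 in pair 2 and -0.09 in pair 3. The ages did not overlap for 2 of 16 genes, against 19.8% of all probe sets: *Cpr47Ee* was lower at 40 days, against 8.42%, and *Twdlalpha* higher, against 11.4%. The 16 genes were taken by their mean over all 6 arrays. For 15 of them the mean was at least 4 at each age, and *Cpr60D* reached 4 only through its 10-day samples, so its lower values at 40 days are partly set by the threshold. *Cpr60D* counts among the 11 genes with a difference below 0, the 6 lower at an unadjusted p under 0.05 by limma, and the 8 lower in all 3 pairs. A filter at 6, which leaves out *Cpr60D* and the 3 Tweedle genes, gave a median difference of -0.30 over 12 genes.

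**Figure D3:**
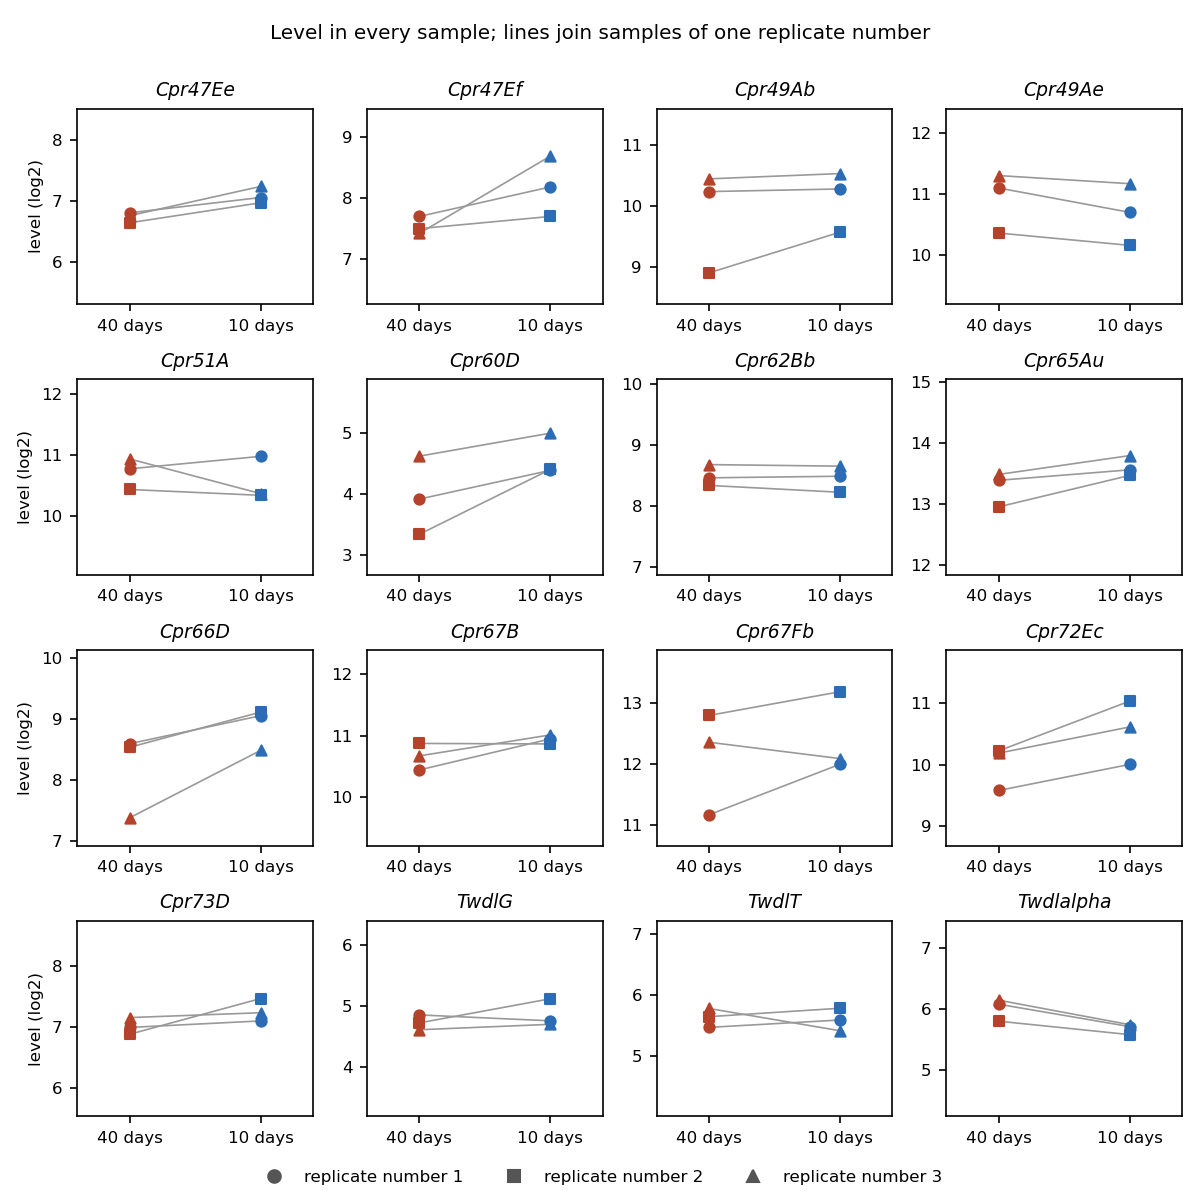
Log2 level (y axis, 3.2 units in each panel) of the 16 genes in every sample at 40 days (red, left) and 10 days (blue, right), with a line joining samples of the same replicate number. Most lines are higher at the 10-day end, but the ages overlap for all genes except *Cpr47Ee* and *Twdlalpha*.

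*Cpr66D* and *Cpr72Ec* encode Rebers-Riddiford proteins that have been found in the corneal lens of the fly eye. *Cpr66D* had levels of 8.59, 8.53 and 7.38 at 40 days, against 9.05, 9.11 and 8.48 at 10 days, for numbers 1, 2 and 3. Each 40-day sample lay below the 10-day sample of its number, number 3 was the lowest at both ages, and the ages overlapped. The fitted difference was -0.71 ± 0.14 (SE), or 0.611-fold (limma adjusted p = 0.0798, and 0.460 without the block). *Cpr72Ec* had 9.58, 10.23 and 10.19 at 40 days, against 10.00, 11.04 and 10.62 at 10 days. Number 1 was the lowest at both ages and every pair was lower at 40 days. The difference was -0.56 ± 0.10, and its adjusted p by limma, 0.0718, was the smallest of the 16 genes. With robust eBayes, 1 of the alternatives, *Cpr72Ec* passed at adjusted p = 0.0448, and no other gene of the 16 did in any alternative run.

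A further lens protein gene, *retinin*, was set beside this pair after their values had been seen. It had 11.02, 10.88 and 10.61 at 40 days and 11.05, 11.19 and 10.96 at 10 days, a difference of -0.22 ± 0.08 (limma adjusted p = 0.189). All 3 lens genes were lower at 40 days in every pair, against 23.2% of all probe sets, and none passed. The pair of number 1 differed by only -0.02 for *retinin*. *Cpr72Ec* and *Cpr66D* were also the cuticle protein genes with the lowest adjusted p by limma, so the 3 genes were not picked without regard to their values. The summed level of the photoreceptor markers, as log2, ran from 15.67 to 15.87 at 40 days and from 15.74 to 15.82 at 10 days, so it overlapped, and none of the 5 lay under 4. That sum is carried by *Arr2* and *Arr1*, and the single markers differed in direction. Of the 5 estimates 3 lay below 0, against 48.1% of all probe sets. *trpl* gave -0.22 ± 0.10 and was lower at 40 days in every pair (limma adjusted p = 0.237). *Arr2* gave 0.09 ± 0.03 and was higher in every pair (limma adjusted p = 0.189).

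*Cpr47Ee* and *Cpr47Ef* are neighbours, and both had lower values at 40 days. *Cpr47Ee* had 6.80, 6.64 and 6.76 at 40 days, against 7.05, 6.97 and 7.24 at 10 days. Its ages did not overlap, and the difference was -0.35 ± 0.08 (limma adjusted p = 0.101). *Cpr47Ef* had 7.70, 7.50 and 7.42 at 40 days, against 8.18, 7.70 and 8.69 at 10 days. The 10-day samples were the more scattered, with an SD of 0.49 against 0.14 at 40 days, and the samples of number 3 differed by -1.26 while those of number 2 differed by -0.20. The difference was -0.65 ± 0.21 (limma adjusted p = 0.164), and it was -0.34 without either sample of number 3. A second probe set of *Cpr47Ef* lay at background, with a mean of 2.06, so the level rests on 1 of its 2 probe sets.

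*Cpr65Au*, the gene above the threshold in its run of larval and adult cuticle genes, was slightly lower at 40 days in every pair. It had 13.39, 12.96 and 13.49 at 40 days, against 13.56, 13.47 and 13.79 at 10 days. Its difference was -0.33 ± 0.07 (limma adjusted p = 0.0985), and only the 40-day sample of number 3 reached into the 10-day range. *Cpr60D*, near the threshold, had 3.91, 3.34 and 4.62 at 40 days, against 4.38, 4.40 and 4.99 at 10 days. Every pair was lower at 40 days, with differences from -1.06 to -0.38 and a fitted difference of -0.64 ± 0.16 (limma adjusted p = 0.110). It was -0.42 without either sample of number 2 and -0.39 with values below 4 set to 4.

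*Cpr49Ae* and *Cpr49Ab*, the genes above the threshold in their run, which code for proteins of the same family, had age estimates of opposite sign, and both differed between the replicate numbers. *Cpr49Ae* had 11.10, 10.36 and 11.30 at 40 days and 10.70, 10.16 and 11.17 at 10 days. It was higher at 40 days in every pair, by 0.13 to 0.40, and the fitted difference was 0.24 ± 0.07 (limma adjusted p = 0.139, and 0.793 without the block). *Cpr49Ab* had 10.24, 8.91 and 10.45 at 40 days and 10.28, 9.58 and 10.53 at 10 days, a difference of -0.27 ± 0.14 (limma adjusted p = 0.306) that was -0.06 without either sample of number 2. In both genes number 2 was the lowest sample at each age.

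The remaining Cpr genes differed between the ages by less than 0.33 on the log2 scale, and their pairs disagreed in direction except for *Cpr73D*. *Cpr67Fb* had 11.17, 12.79 and 12.36 at 40 days, against 12.00, 13.18 and 12.09 at 10 days. Number 2 was the highest at both ages, and the third pair was higher at 40 days while the others were lower (difference -0.32 ± 0.21, limma adjusted p = 0.402). The estimate rested on single pairs: it was -0.06 without either sample of number 1 and -0.61 without either sample of number 3. *Cpr67B* had 10.44, 10.87 and 10.67 at 40 days and 10.94, 10.86 and 11.01 at 10 days, with a difference of -0.28 ± 0.11 (limma adjusted p = 0.205). The 95% interval of that difference, unadjusted, ran from -0.57 to 0.01, and the difference was -0.17 without either sample of number 1 and -0.43 without either of number 2. *Cpr73D* had 6.99, 6.88 and 7.15 at 40 days and 7.10, 7.46 and 7.23 at 10 days, lower in every pair, with a difference of -0.26 ± 0.13 (limma adjusted p = 0.277) that was -0.09 without either sample of number 2. *Cpr51A* had 10.78, 10.44 and 10.94 at 40 days and 10.98, 10.35 and 10.37 at 10 days, so that its pairs ran from -0.20 to 0.57 (difference 0.15 ± 0.15, limma adjusted p = 0.575). Its sign turned, to -0.05, without either sample of number 3, and it was 0.33 without either of number 1. *Cpr62Bb* gave the smallest spread between pairs, -0.03 to 0.11, with 8.46, 8.34 and 8.68 at 40 days and 8.49, 8.23 and 8.65 at 10 days. Its difference was 0.04 ± 0.07 (limma adjusted p = 0.765), with an unadjusted 95% interval from -0.14 to 0.21, and it was -0.0004 without either sample of number 2.

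Of the 3 Tweedle genes above the threshold, *Twdlalpha* was higher at 40 days with no overlap between the ages, but it did not pass the test. It had 6.08, 5.81 and 6.15 at 40 days, against 5.72, 5.59 and 5.75 at 10 days, and all pairs were higher, by 0.22 to 0.40. The difference was 0.33 ± 0.08, or 1.26-fold (limma adjusted p = 0.108, and 0.326 without the block). *TwdlT* had 5.47, 5.64 and 5.78 at 40 days and 5.59, 5.78 and 5.41 at 10 days, and *TwdlG* had 4.86, 4.73 and 4.61 at 40 days and 4.76, 5.12 and 4.70 at 10 days. Their differences, 0.04 ± 0.13 and -0.13 ± 0.12, had limma adjusted p = 0.887 and 0.542, and the pairs of both went in different directions. Both changed sign with 1 sample left out, *TwdlT* to -0.13 without either sample of number 3 and *TwdlG* to 0.0041 without either of number 2.

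**Figure D4:**
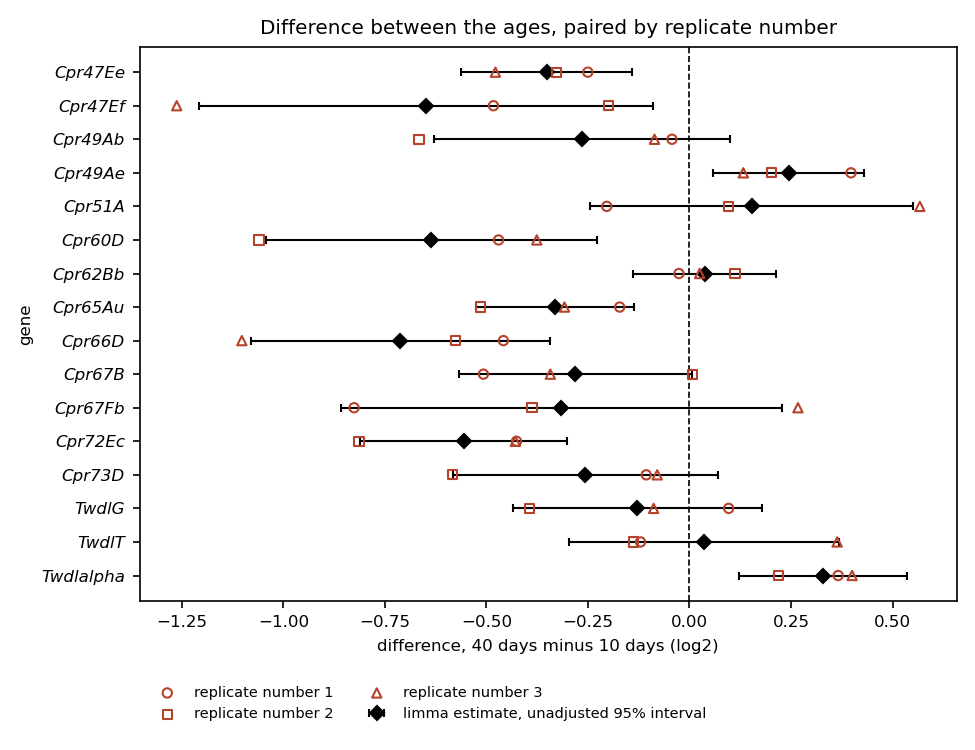
Difference in log2 level, 40 days minus 10 days (x axis), of each of the 16 genes (y axis): diamonds and bars are the limma estimate with its unadjusted 95% interval, and open symbols the 3 pairs. Estimates run from -0.71 for *Cpr66D* to 0.33 for *Twdlalpha*, 11 of 16 lie below 0, and none passed after adjustment.

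Some cuticle protein genes differed between the replicate numbers. In the same limma fit, an F test between the 3 numbers, added after the data were seen, called 2 of the 16 genes, against 4.72% of all probe sets: *Cpr49Ae* (limma adjusted p = 0.0219) and *Cpr49Ab* (limma adjusted p = 0.0457). Number 2 lay below the mean of numbers 1 and 3 by a log2 difference of -0.81 for *Cpr49Ae* and -1.13 for *Cpr49Ab*. *Cpr67Fb* was 1.09 higher in number 2, and *Cpr72Ec* 0.54 higher, and neither passed the F test between the 3 numbers (limma adjusted p = 0.0917 and 0.0521). Number 2 alone was not tested against the others. Number 2 lay below the mean of numbers 1 and 3 for 9 of 16 genes, against 48.5% of all probe sets. The absolute difference between the ages had a median of 0.30 over the 16 genes, against 0.12 over all probe sets tested. Between number 2 and the mean of numbers 1 and 3 it was 0.36, against 0.11.

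Other genes were unequal between the numbers too. The chitin-binding protein genes *obst-A* and *obst-E*, which are cuticle or tracheal matrix genes outside the naming groups, were lower in number 2 by log2 differences of -2.54 and -0.64. Both passed the F test between the 3 numbers (limma adjusted p = 0.0211 and 0.0318). They were the 2 that passed of 6 tested cuticle and matrix genes outside the naming groups, against 4.72% of all probe sets. In number 2, 5 of these 6 lay below the mean of numbers 1 and 3, against 48.5%. The gene *ect* was 1.41 higher in number 2 and did not pass (limma F test, adjusted p = 0.0927). All 6 gut protease markers were lower in number 2 than in the mean of numbers 1 and 3, against 48.5% of all probe sets. The F test called 2 of the 6, against 4.72%. Their summed level, as log2, was 16.80 at 40 days and 16.72 at 10 days in number 2, and 17.04 to 17.41 in the other samples, and none of the 6 lay under 4. Of the 10 male markers, 8 were lower in number 2 than in that mean, against 48.5%, and 0 passed the F test, against 4.72%. The part of other tissues in the values of *Cpr49Ab* and *Cpr49Ae* was not tested. The labels do not say what the replicate numbers stand for beyond independent replicates.

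**Figure D5:**
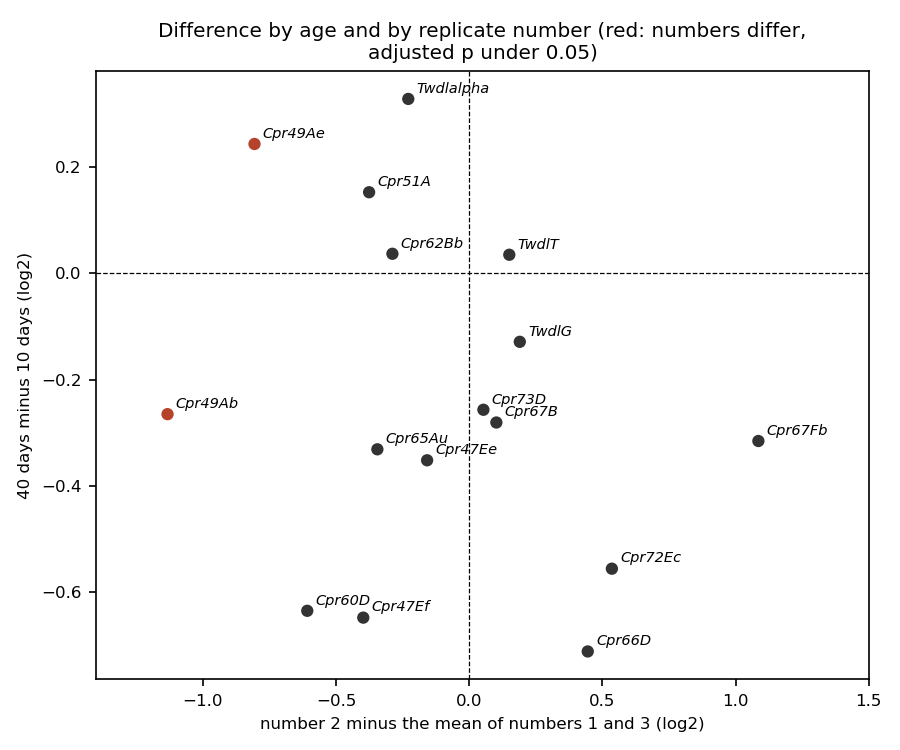
Log2 difference between replicate number 2 and the mean of numbers 1 and 3 (x axis) against the difference between 40 and 10 days (y axis) for the 16 genes. *Cpr49Ab* and *Cpr49Ae* (red), with -1.13 and -0.81 on the x axis, were the genes whose numbers differed past adjustment.

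Genes that act with cuticle proteins were examined in lists. Of 22 further cuticle and matrix protein genes with a probe set, 6 had a mean of at least 4, among them *Gasp* and *dpy*, and 0 passed between the ages, against 1.92% of all probe sets. Of the 6 estimates 5 lay below 0, against 48.1%, and 0 of 6 had an unadjusted p under 0.05 by limma, against 25.1%. Of 31 genes of chitin synthesis, assembly and turnover, 21 were tested and 0 passed by limma, against 1.92%, with 7 of 21 at an unadjusted p under 0.05, against 25.1%. The epidermal chitin synthase gene *kkv* had a mean of 2.46, near background, while *Chs2*, the chitin synthase of the gut lining, had 6.57. The chitin-organising gene *knk* had 3.89, 4.53 and 4.09 at 40 days, against 4.81, 5.07 and 5.08 at 10 days, without overlap (difference -0.81 ± 0.12, limma adjusted p = 0.0514). The brightest genes of this list were the imaginal disc growth factors *Idgf4*, *Idgf6*, *Idgf2* and *Idgf3*, chitinase-like secreted proteins, between 11.97 and 12.95.

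Of 25 genes of cuticle tanning and pigmentation, 15 were tested, 3 fell at 40 days in the fit with the block and 0 rose, against 1.3% of all probe sets called lower. No gene of the list passed without the block. *PPO1* and *PPO2*, which encode prophenoloxidases of blood cells for melanisation, fell, with log2 differences of -1.04 and -1.10 (limma adjusted p = 0.0367 and 0.0314, and 0.310 and 0.233 without the block). *PPO2* had 7.90, 7.17 and 8.12 at 40 days, against 8.99, 8.52 and 8.97 at 10 days, and the 40-day samples all lay below the 10-day samples, as they did for *PPO1*. *yellow-e*, a member of the yellow family of pigmentation genes, fell by the same amount, -1.10 (limma adjusted p = 0.0367, and 0.413 without the block), with overlapping ages. Leaving out samples ended these calls: *PPO1* and *yellow-e* lost theirs without any 1 of the 6 samples and without both samples of number 2, and *PPO2* without any 1 sample of number 1 or 3. The differences themselves stayed between -1.19 and -0.94 for *PPO1*, -1.22 and -0.97 for *PPO2* and -1.25 and -0.98 for *yellow-e* with 1 sample left out. Of the 3 fat body markers tested, *Lsp2*, a larval serum protein gene, fell, by a log2 difference of -2.19 with overlapping ages (limma adjusted p = 0.0316, and 0.599 without the block). The summed level of the 4 fat body markers, as log2, ran from 15.55 to 15.69 at 40 days and from 15.58 to 15.87 at 10 days, and *Fbp1* lay under 4. Of the 3 muscle markers, *TpnC73F*, a troponin C gene, rose by 0.60 without overlap (limma adjusted p = 0.0416, and 0.247 without the block), with sums from 12.70 to 12.95 at 40 days and from 12.69 to 12.90 at 10 days and none under 4. The part of these tissues in the pigmentation values was not tested.

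*speck*, *Pu*, *yellow-d* and *t*, the brightest genes of the tanning and pigmentation list, had limma adjusted p from 0.125 to 0.707. The ebony gene *e*, whose enzyme couples beta-alanine to dopamine, gave -0.72 ± 0.11 (limma adjusted p = 0.0550), without overlap. *stw*, which encodes the laccase that hardens cuticle, gave -0.16 ± 0.08 (limma adjusted p = 0.293).

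Regulators of moulting were tested for 13 of 25 genes with a probe set, and 0 passed by limma, against 1.92%, with 0 of 13 at an unadjusted p under 0.05, against 25.1%. *grh* and *Eip93F*, transcription factors of epidermis and of metamorphosis, had means of 11.01 and 10.84, as did *Kr-h1* and *Cyp18a1* with 9.89 and 9.16, whereas the gene for the tanning hormone subunit *Burs* had 2.09 and its receptor gene *rk* 2.20. Of 18 genes of cuticular hydrocarbons and wax, 13 were tested and 0 passed by limma, against 1.92%, with 6 of 13 at an unadjusted p under 0.05, against 25.1%. The brightest was *Cyp4g1*, the P450 that makes hydrocarbons, at 16.07, with an age difference of 0.00 ± 0.03 (limma adjusted p = 0.989), followed by *Desat1*, *FASN1* and *FASN3* between 13.05 and 15.05.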

How the data were processed

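The deposited values are log2 levels that the authors made with GCRMA, per the submitters' processing notes. GCRMA subtracts a sequence-based background, brings the arrays to a common distribution and combines each probe set's probes. The sources used here give no version of it, no annotation build and no filter. Of 15131 probe sets, 13333 had 1 gene, 390 several and 1408 none. Symbols were updated by gene ID through RefSeq, and all 104 genes matched. Values were used as deposited, and those probe sets whose 6-array mean log2 was 4 or more went into limma 3.58.1 in R 4.3.3 (eBayes with a trend, two-sided), with age and the replicate number as a block, since same-numbered samples deviated together in all 3 pairs (0.707, 0.772 and 0.353, each above 0.1). P values were adjusted by Benjamini-Hochberg over 10286 probe sets, with a threshold of 0.05. Tables and plots used pandas 2.3.3 and matplotlib 3.10.9.

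Genes with a mean of at least 4 are named with every value, below that those nearest the threshold and examples by family. Of each list of related genes, those past the test and up to 4 of the brightest are named, and others after their values were seen. The genes, lists and tests were chosen with earlier results of these data known. No sequences are shown, and the number of arrays limits the precision. Alternatives covered the block, the filter on dim probe sets, normalization, eBayes options, array weights, a floor, probe set averaging and samples left out.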

Additional observations from a re-analysis of the deposited data

How the results depend on the processing

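The count of cuticle protein genes that passed stayed at 0 in 16 of 17 alternatives and was 1 (*Cpr72Ec*) with robust eBayes. The 17 were not separate checks. With the block, a sample left out takes its pair out of the age difference. Leaving out either sample of a number, or both of number 2, therefore gave the same differences. Their median log2 difference, -0.27, ran from -0.33 to -0.17 in the alternatives over tested genes, -0.31 to -0.17 with 1 sample left out, and was 0.00 with no filter, over all 104 genes. The number of all probe sets called moved more: 198 with the replicate block and 35 with no replicate block, 0 with no filter, 119 with eBayes without a trend, 395 with robust eBayes, and 118 without both samples of number 2. With 1 sample left out it ran from 7 (without the 40-day or the 10-day sample of number 1) to 119. The cause of these changes was not tested. The replicate block changed no call among the 16 genes, and *PPO1*, *PPO2* and *yellow-e* passed only with it. The sign turned for 4 of the 16 genes, none of them called. *TwdlT* gave -0.0179 with array weights and *TwdlG* 0.0041 and *Cpr62Bb* -0.0004 without both samples of number 2. With 1 sample left out, *TwdlT* ran from -0.129 to 0.122, *Cpr51A* from -0.0542 to 0.331, *TwdlG* from -0.241 to 0.0041 and *Cpr62Bb* from -0.0004 to 0.0685. Averaging probe sets of a gene changed no cuticle value, because the second probe sets lay under 4. With 3 arrays per age, small differences such as these may be missed, and levels near 2.06 have no order.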
